A study of Canis lupus familiaris with 6 samples.

Results

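Glycolysis and hypoxia-regulated transcripts were followed in MDCK cells, a canine kidney epithelial line, as a set of 37 genes among the 41401 gene symbols measured. The set was named in advance by gene symbol: 18 genes of glucose uptake and glycolysis, 6 genes of pyruvate and lactate handling, 9 non-metabolic targets of the hypoxia-inducible factors (HIF), and 4 oxygen sensors and HIF subunits. All 37 symbols were found, and 35, whose FPKM averaged 1 or more, were tested. The carbonic anhydrase gene CA9 and the HIF subunit gene EPAS1 stayed below that level. FPKM scales fragments by transcript length and by all mapped fragments, so levels of different genes can be set side by side.

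The series asks how loss of PRL phosphatases affects these cells in a study of cellular magnesium decrease and NF-κB-dependent cell death. The 3 lines were wild-type cells, and clone 1 (D7) and clone 2 (F22), both with the genotype PRL2-/-; PRL1+/-. Cells of each line were transfected with control or PRL1 siRNA and harvested for RNA 18 h after a second round, giving 6 libraries with 1 per line and treatment. The wild type is 1 line and each mutant is 1 clone, so a difference between lines is not a difference between genotypes, and the labels do not give how the alleles were disrupted or whether cultures were separate. P-values therefore measure only the spread between these samples, which may be technical.

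Glycolysis converts glucose to pyruvate in the cytosol, and lactate dehydrogenase and the monocarboxylate carriers turn pyruvate into lactate and move it across the membrane. HIF-1 is a heterodimer whose alpha subunit is hydroxylated by the EGLN prolyl hydroxylases when oxygen is present, bound by VHL and degraded. When oxygen falls the subunit accumulates and raises transcription of most glycolytic genes, and also of genes for blood vessel growth, removal of mitochondria and collagen modification. The proximal tubule of the kidney relies mainly on oxidative metabolism, while distal tubule cells and cultured epithelial lines use glycolysis more.

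The PRL1 transcript PTP4A1 dropped from 63.5 to 33.1 FPKM (wild type), 61.7 to 37.8 (clone 1) and 69.9 to 37.8 (clone 2), where the control siRNA value stands first here and throughout, a fitted fall of 0.83 ± 0.05 on the log2(FPKM + 1) scale (SE, n = 3 pairs; limma adjusted p = 0.00127). The PRL2 transcript PTP4A2 stood at 72.7 and 59.0 FPKM (wild type), 80.4 and 69.1 (clone 1), and 56.7 and 48.3 (clone 2). It also fell with PRL1 siRNA, by 0.25 ± 0.04 (limma adjusted p = 0.00572). Over both siRNAs it was higher than wild type in clone 1 (0.18, adjusted p = 0.0352) and lower in clone 2 (-0.32, adjusted p = 0.00552), although both are labelled PRL2-/-, so its level does not check the genotype. Between 11908 and 12209 symbols reached 1 FPKM in a library. The absolute depth is unknown, and relative to the wild-type control library the other 5 libraries had 0.766 to 0.914 of the depth. All 10 kidney epithelial markers reached 1 FPKM, summing to 1340 to 1980 FPKM. Of the other cell types, 0 of 6 fibroblast and 0 of 5 endothelial markers reached that mean level. PTPRC and CD3E, which define leukocytes, were listed at 0 in all libraries.

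Of the summed FPKM of a library, the 37 genes held 1.89% (control siRNA) and 2.00% (PRL1 siRNA) in wild type, 1.60% and 1.61% for clone 1, and 1.61% and 1.52% for clone 2. Both wild-type libraries were thus above all 4 clone libraries. The later steps of glycolysis gave the most abundant transcripts. GAPDH, which oxidises glyceraldehyde 3-phosphate, ranged from 1230 to 1618 FPKM over the 6 libraries, and the enolase gene ENO1 from 879 to 1053. The lactate dehydrogenase gene LDHA ranged from 634 to 862, the phosphoglycerate mutase gene PGAM1 from 627 to 835 and the aldolase gene ALDOA from 601 to 748. How fragments that match several places were assigned is not given in the sources used here, and several of these enzymes have processed copies in mammalian genomes, so their values are uncertain to that extent. Summed over isozymes, the phosphofructokinase, aldolase, enolase and triose phosphate isomerase steps varied by 1.25-fold, 1.24-fold, 1.17-fold and 1.14-fold between the highest and the lowest library. Glucose uptake by SLC2A1 and glucose 6-phosphate isomerase, GPI, varied more, by 1.65-fold and 1.57-fold. None of the 35 tested genes changed 2-fold with PRL1 siRNA in any line. Such changes were rare among all 12125 genes too, with 146 up and 105 down 2-fold or more in at least 1 line.

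PRL1 siRNA was compared with control siRNA within each line, and the fitted mean over the 3 lines was tested. Of the 35 genes, 8 rose: HK1, PFKM, PFKFB4, ALDOA, ALDOC, ENO2 and PKM of glycolysis and the mitophagy receptor gene BNIP3L. Another 4 fell: the glucose transporter gene SLC2A1, LDHB, VEGFA and the oxygen sensor gene EGLN1. Of all 12125 genes tested, 17.6% passed as higher and 21.7% as lower, so the members' 12 calls (34.3%) were a share below the 39.3% called among all genes. Without the clone 1 pair 7 of 35 members passed, beside 14.1% of all genes, and without the clone 2 pair 13 of 35, beside 20%. The members' share was thus above that of all genes in both of these settings. Without the wild-type pair 11 of 35 members passed, beside 33.3% of all genes. The median difference was 0.06 for the members and -0.01 for all genes. In bulk RNA, a change in the share of cells that express a gene and a change in RNA per cell cannot be told apart.

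**Figure D1:**
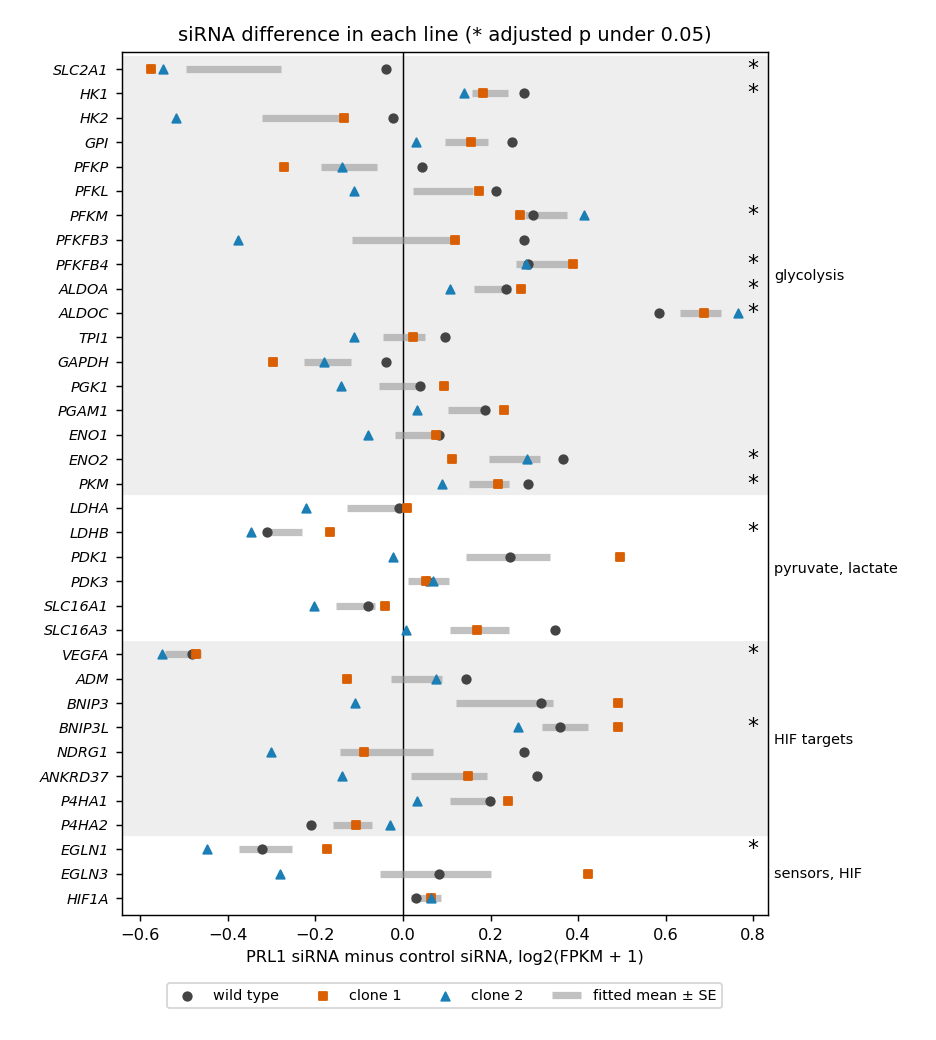
PRL1 siRNA minus control siRNA on the log2(FPKM + 1) scale for the 35 tested genes, with 1 point per line (wild type, clone 1, clone 2), a grey bar for the fitted mean ± SE, and a star where the limma adjusted p was under 0.05. The points of ALDOC, PFKM, PFKFB4 and BNIP3L lie above 0 and those of VEGFA, LDHB and EGLN1 below 0 in all 3 lines, while PFKFB3, BNIP3, EGLN3 and NDRG1 have points on both sides.

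Within glycolysis, 7 of 18 genes passed as higher and 1 as lower, and the median difference was 0.12. The largest rise was that of ALDOC, the aldolase isozyme known best from brain. ALDOC went from 32.9 to 49.9 FPKM (wild type), 20.5 to 33.7 (clone 1) and 24.4 to 42.1 (clone 2), a fitted difference of 0.68 ± 0.05 with an adjusted p of 0.00138. Each PRL1 siRNA library was above all 3 control libraries. ALDOA, the main aldolase of these cells, went from 601 to 708 FPKM (wild type), 620 to 748 (clone 1) and 607 to 654 (clone 2), a fitted difference of 0.20 ± 0.04 with an adjusted p of 0.0156. Its siRNA groups did not overlap either, but the call was lost without the wild-type pair (adjusted p = 0.0558) or the clone 1 pair (adjusted p = 0.13).

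Of the 3 phosphofructokinase genes, which encode the enzyme of the committed step, only the least abundant passed. PFKM, the muscle-type subunit, went from 9.09 to 11.4 FPKM (wild type), 9.4 to 11.5 (clone 1) and 9.70 to 13.3 (clone 2), a fitted difference of 0.33 ± 0.05 with an adjusted p of 0.00568. PFKP, the platelet-type subunit, was the most abundant and stood at 89.6 and 92.3 FPKM (wild type), 90.1 and 74.4 (clone 1), and 86.9 and 78.8 (clone 2), giving -0.12 with an adjusted p of 0.175. PFKL, the liver-type subunit, stood at 59.2 and 68.8 FPKM (wild type), 50.6 and 57.2 (clone 1), and 50.0 and 46.2 (clone 2), giving 0.09 with an adjusted p of 0.334. The PFKM groups did not overlap, while those of PFKP and PFKL did.

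PFKFB3 and PFKFB4 encode bifunctional enzymes that set the level of fructose 2,6-bisphosphate, the activator of phosphofructokinase, and both are known HIF targets. PFKFB4, the scarcer, went from 2.47 to 3.23 FPKM (wild type), 2.28 to 3.29 (clone 1) and 2.93 to 3.77 (clone 2), a fitted difference of 0.32 ± 0.06 with an adjusted p of 0.0115. The groups did not overlap, and the call was lost without the clone 1 pair (adjusted p = 0.0721). PFKFB3 stood at 114 and 138 FPKM (wild type), 46.0 and 50.1 (clone 1), and 63.5 and 48.7 (clone 2), giving 0.01 ± 0.12 with an adjusted p of 0.975. It was higher with PRL1 siRNA in wild type and clone 1 and lower in clone 2, and the distance between wild type and the clones exceeded any siRNA difference.

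Hexokinase traps glucose in the cell. HK1, the housekeeping form, went from 51.3 to 62.4 FPKM (wild type), 48.8 to 55.5 (clone 1) and 53.5 to 59.0 (clone 2), a fitted difference of 0.20 ± 0.04 with an adjusted p of 0.0152, a call lost without clone 1 (adjusted p = 0.0821). The HK1 groups did not overlap. HK2, the inducible form, stood at 30.8 and 30.3 FPKM (wild type), 21.2 and 19.2 (clone 1), and 34.5 and 23.8 (clone 2), giving -0.23 ± 0.10 with an adjusted p of 0.116. HK2 was thus lower with PRL1 siRNA in each line, by an amount that ranged from 0.02 to 0.52 in size and did not pass.

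At the last steps, ENO2, the neuronal enolase, went from 9.16 to 12.1 FPKM (wild type), 9.45 to 10.3 (clone 1) and 28.7 to 35.1 (clone 2), a fitted difference of 0.25 ± 0.06 with an adjusted p of 0.0209. The ENO2 call was lost without the wild-type pair (adjusted p = 0.0629) or the clone 2 pair (adjusted p = 0.101). ENO1, the main enolase, stood at 995 and 1053 FPKM (wild type), 919 and 969 (clone 1), and 928 and 879 (clone 2), giving 0.03 with an adjusted p of 0.658. The groups overlapped for both enolases, ENO2 because of its level in clone 2. PKM, the pyruvate kinase, went from 351 to 428 FPKM (wild type), 335 to 390 (clone 1) and 339 to 361 (clone 2), a fitted difference of 0.20 ± 0.05 with an adjusted p of 0.0222. The PKM groups did not overlap, and its call was lost without the wild-type pair (adjusted p = 0.064) or the clone 1 pair (adjusted p = 0.134).

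SLC2A1, the basal glucose transporter also known as GLUT1, was the 1 glycolysis gene that fell. It stood at 598 and 582 FPKM (wild type), 542 and 363 (clone 1), and 599 and 409 (clone 2), giving -0.39 ± 0.11 with an adjusted p of 0.0383. Wild type changed by -0.04 and the clones by -0.58 and -0.55, so the fitted fall rests on the clones, and the wild-type PRL1 siRNA library lay among the controls. As an interaction, the siRNA effect of the clones minus that of wild type was -0.52 ± 0.16, with an unadjusted p of 0.0344 and an adjusted p of 1.00 by limma. With the line as a replicate block its adjusted p was 0.261. The call over 3 lines was lost in 7 of 12 alternatives. It was lost without clone 1 (adjusted p = 0.191) or clone 2 (adjusted p = 0.151), and with quantile normalization (adjusted p = 0.074). The same held with no intensity trend (limma adjusted p = 0.0573), no replicate block (0.101) or no filter on low values (0.257). It was also lost in the clones only with no replicate block (limma adjusted p = 0.123).

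The remaining 5 glycolysis genes did not pass: GPI (0.14, adjusted p = 0.0639), TPI1 (0.00, adjusted p = 0.969), GAPDH (-0.17, adjusted p = 0.0529), PGK1 (0.00, adjusted p = 0.965) and PGAM1 (0.15, adjusted p = 0.0522). GAPDH, GPI and PGAM1 lay close to the threshold, GAPDH with lower values and the other two with higher values in the PRL1 siRNA library of each line.

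**Figure D2:**
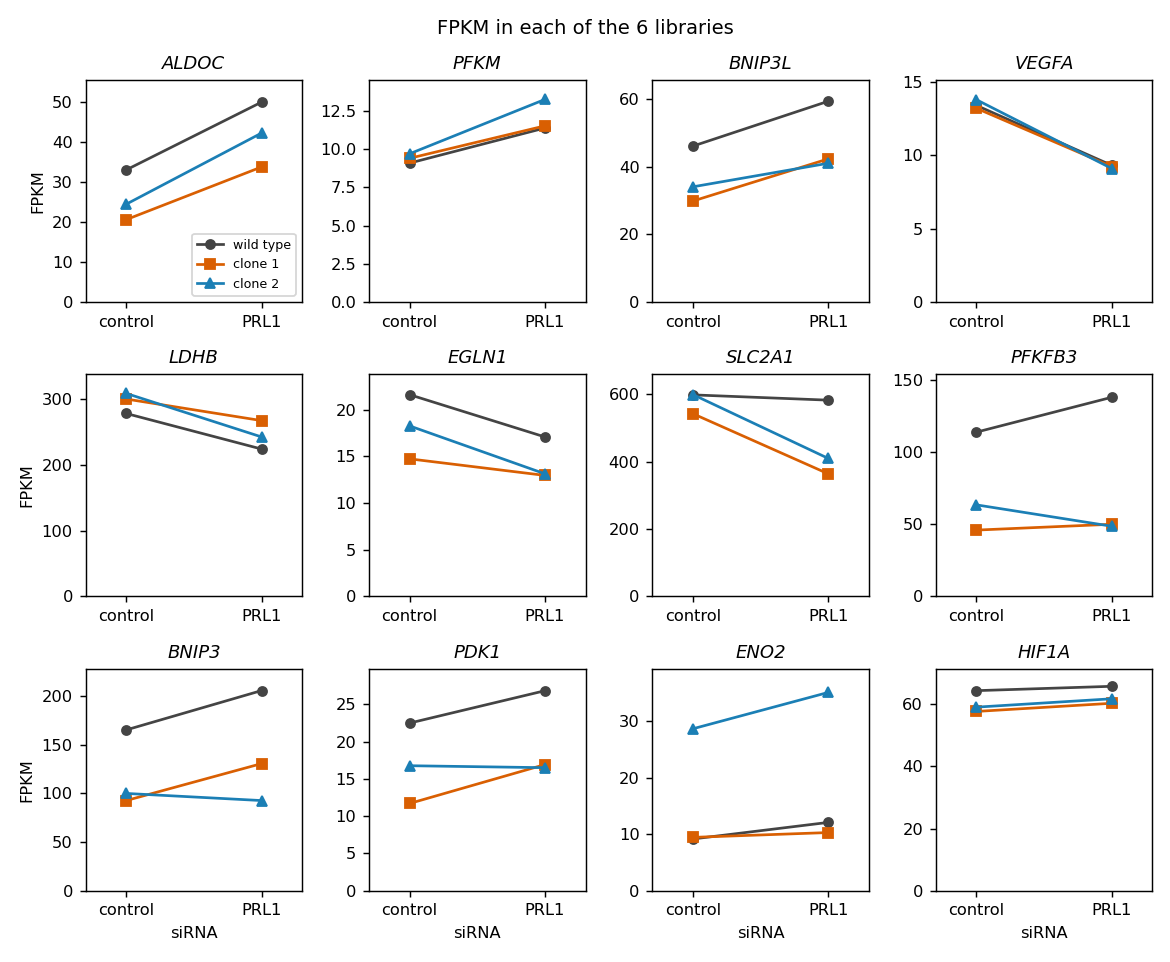
FPKM of 12 genes under control and PRL1 siRNA, with 1 point per library, each line joined by a segment and each axis starting at 0. ALDOC, PFKM and BNIP3L go up and VEGFA, LDHB and EGLN1 go down in each line, SLC2A1 goes down more in both clones than in wild type, and PFKFB3, BNIP3 and ENO2 are set apart by line.

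Because isozymes moved unequally, their shares of the summed FPKM of a step shifted. ALDOC made up 5.19% of aldolase transcript in wild type under control siRNA and 6.58% under PRL1 siRNA, 3.20% and 4.31% in clone 1, and 3.86% and 6.06% in clone 2. PFKM went from 5.75% to 6.60% of phosphofructokinase transcript (wild type), 6.26% to 8.05% (clone 1) and 6.62% to 9.59% (clone 2). HK2 went the other way in each line, from 37.5% to 32.7% of hexokinase transcript (wild type), 30.3% to 25.7% (clone 1) and 39.2% to 28.7% (clone 2). In each line, then, the share of the minor aldolase and phosphofructokinase forms was higher and that of the inducible hexokinase was lower with PRL1 siRNA. These shares were not tested as such.

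**Figure D3:**
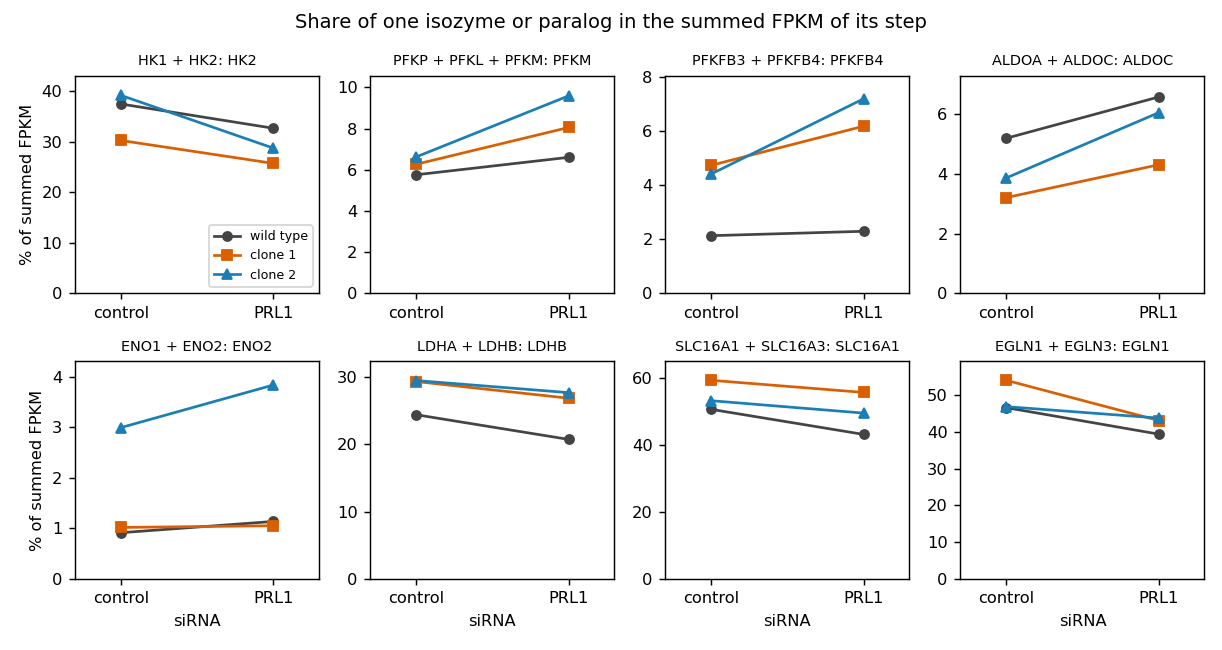
Share of 1 isozyme or paralog in the summed FPKM of its step (percent), under control and PRL1 siRNA in each line, with 1 point per library and each axis starting at 0. The shares of PFKM and ALDOC are higher and those of HK2, LDHB, SLC16A1 and EGLN1 lower with PRL1 siRNA in all 3 lines, and ENO2 takes 3.00% and 3.84% of enolase transcript in clone 2 against 0.913% to 1.14% in the other lines.

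Among the 6 genes of pyruvate and lactate handling, LDHB fell and the other 5 did not pass, with a median difference of -0.01. LDHB encodes the lactate dehydrogenase subunit that favours lactate oxidation, and LDHA the subunit that favours its production. LDHB went from 278 to 224 FPKM (wild type), 300 to 267 (clone 1) and 309 to 242 (clone 2), a fitted difference of -0.28 ± 0.05 with an adjusted p of 0.008, with all 3 PRL1 siRNA libraries below all 3 controls. LDHA stood at 862 and 858 FPKM (wild type), 724 and 729 (clone 1), and 739 and 634 (clone 2), giving -0.07 with an adjusted p of 0.321. The LDHB share of lactate dehydrogenase transcript dropped from 24.4% to 20.7% (wild type), 29.3% to 26.8% (clone 1) and 29.5% to 27.7% (clone 2).

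PDK1 and PDK3 encode kinases that switch off pyruvate dehydrogenase, and PDK1 is a well known HIF target. PDK1 stood at 22.5 and 26.8 FPKM (wild type), 11.7 and 16.9 (clone 1), and 16.8 and 16.5 (clone 2), giving 0.24 ± 0.10 with an adjusted p of 0.1. PDK3 stood at 6.31 and 6.59 FPKM (wild type), 4.88 and 5.09 (clone 1), and 3.75 and 3.98 (clone 2), giving 0.06 with an adjusted p of 0.359. Both kinases were set by line more than by siRNA, with wild type highest. SLC16A3, the lactate exporter MCT4 and a HIF target, stood at 51.8 and 66.1 FPKM (wild type), 34.5 and 38.9 (clone 1), and 45.6 and 45.8 (clone 2), giving 0.17 with an adjusted p of 0.0921. SLC16A1, the carrier MCT1, stood at 53.1 and 50.2 FPKM (wild type), 50.4 and 48.9 (clone 1), and 51.9 and 45.0 (clone 2), giving -0.11 with an adjusted p of 0.105. SLC16A1 was the steadier of the carriers over the lines, and neither passed for the siRNA.

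Of the 9 non-metabolic HIF targets, 8 were tested, of which 1 rose and 1 fell, with a median difference of 0.07. VEGFA, the main growth factor for blood vessels and a classical HIF target, went from 13.4 to 9.30 FPKM (wild type), 13.2 to 9.22 (clone 1) and 13.8 to 9.09 (clone 2), a fitted difference of -0.50 ± 0.04 with an adjusted p of 0.00165. The 3 lines were nearly superimposed under either siRNA, and the siRNA groups did not overlap. BNIP3L, which recruits mitochondria to autophagosomes, moved the other way, from 46.2 to 59.5 FPKM (wild type), 29.9 to 42.4 (clone 1) and 34.1 to 41.1 (clone 2), a fitted difference of 0.37 ± 0.05 with an adjusted p of 0.00504. Its paralog BNIP3 stood at 165 and 206 FPKM (wild type), 92.6 and 131 (clone 1), and 99.9 and 92.6 (clone 2), giving 0.23 ± 0.11 with an adjusted p of 0.149. The siRNA groups of both paralogs overlapped, because wild type was higher than the clones, and BNIP3 was higher with PRL1 siRNA in wild type and clone 1 and lower in clone 2.

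P4HA1 and P4HA2 encode the catalytic subunits of collagen prolyl 4-hydroxylase. P4HA1 stood at 45.9 and 52.9 FPKM (wild type), 41.6 and 49.3 (clone 1), and 48.7 and 49.8 (clone 2), giving 0.16 with an adjusted p of 0.0561. P4HA2 stood at 83.0 and 71.7 FPKM (wild type), 121 and 112 (clone 1), and 96.7 and 94.7 (clone 2), giving -0.12 with an adjusted p of 0.0894. The paralogs had opposite signs in each line, and neither passed. ADM, a vasodilator peptide gene, NDRG1, a stress-response gene, and ANKRD37 gave 0.03, -0.04 and 0.11 with adjusted p of 0.706, 0.802 and 0.372. CA9, a membrane carbonic anhydrase that hypoxia induces strongly in many epithelial cells, was at 0.849 and 0.473 FPKM (wild type), 1.31 and 0.688 (clone 1), and 0.902 and 0.720 (clone 2). CA9 was lower in the PRL1 siRNA library of each line but too low for the test, and when all genes above 0 were fitted its adjusted p was 0.153.

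Of the oxygen sensors and HIF subunits, EGLN1 fell and HIF1A and EGLN3 did not pass. EGLN1, the main prolyl hydroxylase for HIF-1 alpha under normal oxygen, went from 21.6 to 17.1 FPKM (wild type), 14.7 to 13 (clone 1) and 18.3 to 13.1 (clone 2), a fitted difference of -0.31 ± 0.06 with an adjusted p of 0.0123, a call lost without clone 2 (adjusted p = 0.058). It was lower in each line, although the groups overlapped through the high wild-type values. EGLN3, an inducible hydroxylase, stood at 24.8 and 26.3 FPKM (wild type), 12.5 and 17.1 (clone 1), and 20.7 and 16.9 (clone 2), giving 0.07 with an adjusted p of 0.665. HIF1A stood at 64.3 and 65.7 FPKM (wild type), 57.7 and 60.3 (clone 1), and 59.0 and 61.7 (clone 2), giving 0.05 with an adjusted p of 0.257. HIF1A was thus nearly level, with both wild-type libraries above all clone libraries. EPAS1, which encodes HIF-2 alpha, was at 0.0753 and 0.208 FPKM (wild type), 0.122 and 0.044 (clone 1), and 0.585 and 0.637 (clone 2), at most 1.02% of the summed FPKM of both subunit genes. HIF activity is set mainly by the stability of the alpha subunit protein, which was not measured.

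Glycolytic genes and non-metabolic HIF targets were set side by side in each line. The median siRNA difference of the 18 glycolysis genes was 0.22 in wild type, 0.14 in clone 1 and -0.02 in clone 2, and that of the 8 HIF targets was 0.24, 0.03 and -0.07. PRL1 siRNA libraries were higher for 15, 14 and 9 of the glycolysis genes and for 6, 4 and 3 of the HIF targets, in the order wild type, clone 1 and clone 2. Over all 12125 genes the medians were 0.00, -0.01 and -0.02, and 5949, 5763 and 5602 genes were higher. All 35 members together gave medians of 0.19, 0.11 and -0.08, with 26, 24 and 15 genes higher. Both groups thus had their highest median in wild type and their lowest in clone 2.

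Counting genes that kept 1 direction over the 3 lines, 14 of the 35 members were higher and 8 were lower with PRL1 siRNA in all 3, and 13 were mixed. Of all genes tested, 31.6% were higher and 35.8% lower in all 3 lines, against 40% and 22.9% of the members. The members with opposite signs in clone 2 and the other lines included PFKFB3 (0.28 in wild type, 0.12 in clone 1, -0.38 in clone 2), BNIP3 (0.31, 0.49, -0.11), EGLN3 (0.08, 0.42, -0.28) and PDK1 (0.24, 0.50, -0.02). NDRG1 was higher in wild type and lower in both clones (0.28, -0.09, -0.30). Each of these is a difference between 1 library and 1 library, with no replicate check within a line.

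The siRNA effect in the clones minus that in wild type was tested as an interaction in a fit with 4 groups. By limma, 0 of the 35 members passed, and of all genes 0 passed (0%), with 136 genes and 1 member, SLC2A1, at an unadjusted p under 0.05. With the replicate block 0 members passed and 4 of 35 were at an unadjusted p under 0.05: NDRG1, PFKP, SLC16A3 and SLC2A1. Of all 12125 genes, 1228 were at an unadjusted p under 0.05 in that fit, a share near that of the members. A different siRNA effect in the clones was not detected for any member, in a design whose spread came from 2 clones.

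The lines themselves differed more than the siRNA treatments did for several members. Each clone was compared with wild type over both siRNAs, so that a line's control and PRL1 siRNA libraries are its 2 values, and both comparisons share the wild-type libraries. In clone 1, 14 of 35 members were lower and 2 higher than in wild type, where 8.07% of all genes passed as lower and 16.7% as higher. In clone 2, 15 were lower and 2 higher, where 13.6% of all genes passed as lower and 18.6% as higher. The median difference of the members was -0.18 in clone 1 and -0.18 in clone 2, against 0.05 and 0.02 for all genes. Lower members were thus more frequent, and higher members less frequent, than among all genes in both comparisons.

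Leaving out single libraries changed these counts, and fewer of all genes passed in each of those fits as well. A lower count is therefore not particular to the members. For clone 1, all member calls were lost without its control library and most without its PRL1 siRNA library. The members' median difference was -0.18 in both fits, against 0.05 and 0.04 for all genes. Without the wild-type control or PRL1 siRNA library it was -0.28 and -0.15, against 0.04 and 0.05, and part of the calls were lost. For clone 2, the members' median was -0.26 without its control library and -0.12 without its PRL1 siRNA library. It was -0.26 and -0.12 without the same wild-type libraries, against 0.02 for all genes in each of these fits. More clone 2 calls were lost without the clone 2 or wild-type PRL1 siRNA library than without their control libraries. ENO2, PFKFB3, GPI, PDK3, BNIP3 and BNIP3L kept their clone 2 calls whichever library was left out. Of the calls in clone 1 over all genes, 67.4% were higher, a share that was 51.1% with median-of-ratios scaling and 50.2% with quantile normalization, while all 16 members kept their calls and directions under both scalings.

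**Figure D4:**
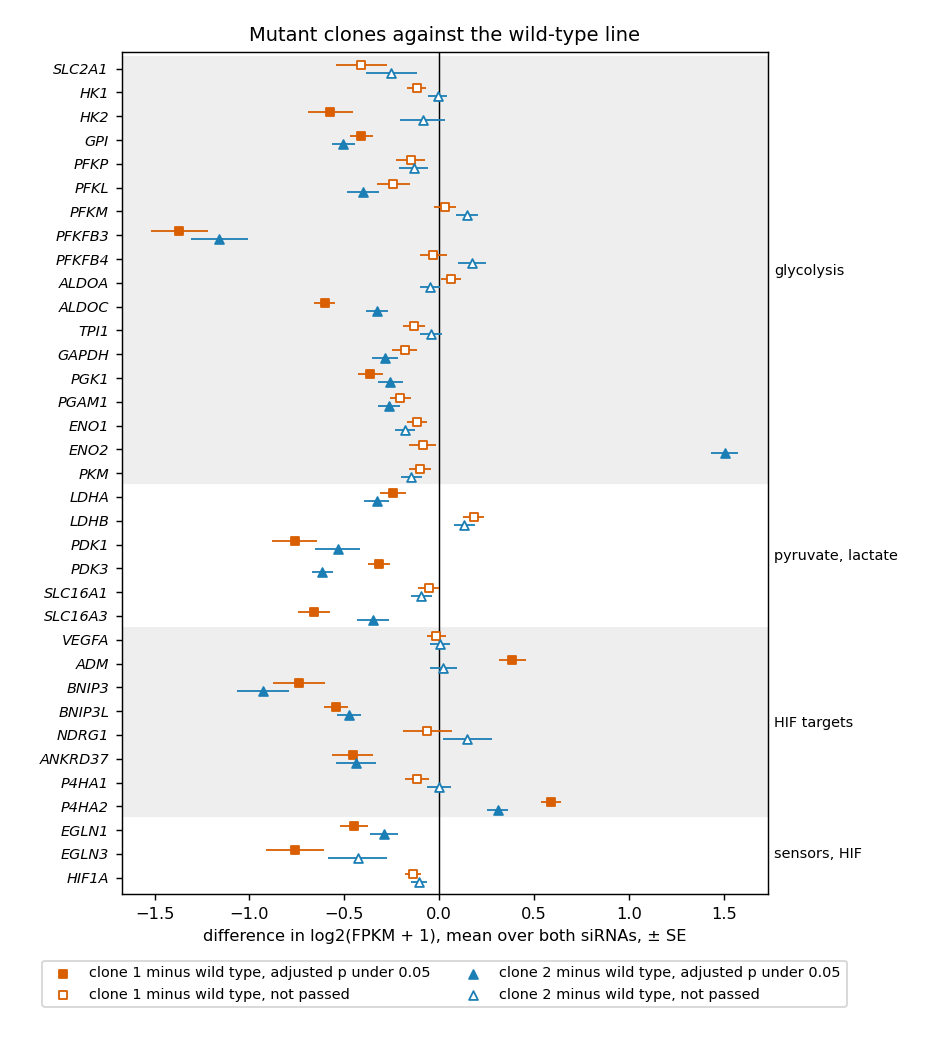
Clone 1 (squares) and clone 2 (triangles) minus wild type for the 35 tested genes, on the log2(FPKM + 1) scale as the mean over both siRNAs ± SE, with filled symbols where the limma adjusted p was under 0.05. PFKFB3 is the lowest gene in both clones, at -1.37 and -1.16, and ENO2 in clone 2 is the highest, at 1.5.

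PFKFB3 had the largest fall from wild type among the members, -1.37 ± 0.15 in clone 1 (adjusted p = 0.00484) and -1.16 ± 0.15 in clone 2 (adjusted p = 0.00444), from 114 and 138 FPKM in wild type to 46.0 to 63.5 in the clones. Its scarce paralog PFKFB4 differed by -0.03 and 0.17 and passed in neither. PFKFB4 therefore made up 2.12% and 2.29% of their summed FPKM in wild type, and 4.40% to 7.18% in the clone libraries. Elsewhere in glycolysis, GPI differed by -0.41 ± 0.06 and -0.51 ± 0.06, ALDOC by -0.60 ± 0.06 and -0.33 ± 0.06, and PGK1, which makes the first ATP of the pathway, by -0.36 ± 0.06 and -0.26 ± 0.06, all passing in both clones. HK2 passed in clone 1 (-0.57 ± 0.12) and not in clone 2 (-0.09). PFKL (-0.40), GAPDH (-0.29) and PGAM1 (-0.27) passed as lower in clone 2, and gave -0.24, -0.18 and -0.20 in clone 1 without passing, and the clones did not differ by test for these 3 genes.

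In the pyruvate and lactate branch, 4 of 6 genes passed as lower in each clone: LDHA, PDK1, PDK3 and SLC16A3. PDK1 differed by -0.76 ± 0.12 in clone 1 and -0.54 ± 0.12 in clone 2, and SLC16A3 by -0.66 ± 0.08 and -0.35 ± 0.08. PDK3 differed by -0.32 ± 0.06 and -0.62 ± 0.06, and LDHA by -0.24 ± 0.07 and -0.33 ± 0.07. LDHB had the opposite sign, 0.18 and 0.13, and did not pass, and SLC16A1 differed by -0.06 and -0.09. The lactate exporter and the kinases that hold back pyruvate oxidation were thus lower in both clones, while the MCT1 transcript passed in neither.

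The HIF targets were split. BNIP3 differed from wild type by -0.74 ± 0.14 in clone 1 and -0.93 ± 0.14 in clone 2, BNIP3L by -0.54 ± 0.06 and -0.47 ± 0.06, and ANKRD37 by -0.46 ± 0.11 and -0.44 ± 0.11, all passing in both. P4HA2 was higher in both, by 0.59 ± 0.05 and 0.31 ± 0.05, and ADM was higher in clone 1 (0.39 ± 0.07, from 65.2 and 72.1 FPKM in wild type to 94.0 and 85.9). VEGFA differed by -0.02 and 0.00, NDRG1 by -0.06 and 0.15 and P4HA1 by -0.12 and 0.00, and these did not pass. Of the sensors, EGLN1 was lower in both clones (-0.45 ± 0.07 and -0.29 ± 0.07) and EGLN3 in clone 1 (-0.76 ± 0.16, against -0.43 in clone 2, adjusted p = 0.0872). HIF1A differed by -0.14 and -0.11 with adjusted p of 0.059 and 0.103.

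ENO2 separated clone 2 from both other lines. It stood at 28.7 and 35.1 FPKM in clone 2, against 9.16 to 12.1 in wild type and 9.45 and 10.3 in clone 1. The difference was 1.5 ± 0.07 from wild type (adjusted p = 0.0003) and 1.59 ± 0.07 from clone 1 (adjusted p = 0.000466). The 2 clones carry the same labelled genotype, and 6 of the 35 members differed between them: ENO2, HK2 (0.49 ± 0.12) and ALDOC (0.28) were higher in clone 2, and ADM (-0.36), PDK3 (-0.30) and P4HA2 (-0.28) lower. Of all genes 6.73% passed as higher and 7.79% as lower in clone 2 than in clone 1, and 46.4% of those calls were higher, or 56.6% with median-of-ratios scaling. The share of members called, 17.1%, was near the 14.5% called among all genes. Leaving out any 1 library of a clone kept the ENO2 call and lost most of the other member calls. Fewer of all genes passed in those fits as well. Over all alternatives the ENO2 difference between the clones ranged from 1.48 to 1.7.

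Under control siRNA alone, both clones together were compared with wild type in the 4-group fit, where the lone wild-type library is assumed to vary as the clones do. By limma, 0 of 35 members passed and 0% of all genes, with 1632 genes at an unadjusted p under 0.05. PFKFB3 gave -1.06 ± 0.21 there (adjusted p = 0.262). The line differences above therefore rest on taking a line's control and PRL1 siRNA libraries together.

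A companion list of 56 other genes, 24 of glucose and pyruvate metabolism and 32 of the HIF pathway, held 43 that could be tested. It was drawn up with earlier results of these data known. With PRL1 siRNA, 5 of 15 tested metabolic genes rose (BSG, PCK1, PDK2, PGM1, PGM2) and 4 fell (BPGM, MPC1, PCK2, TIGAR). Of 28 tested HIF pathway genes 9 rose (ANGPTL4, BHLHE41, CITED2, FAM162A, GYS1, INSIG2, KDM3A, PLOD1, PLOD2) and 4 fell (AK4, ERO1A, LOX, VHL). The list medians were 0.03 and 0.06, beside -0.01 for all genes, and 39.3% of all genes passed.

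The largest difference was that of ANGPTL4, a secreted inhibitor of lipoprotein lipase, which went from 3.61 to 8.0 FPKM (wild type), 3.36 to 6.93 (clone 1) and 5.59 to 8.70 (clone 2), a fitted difference of 0.79 ± 0.09 with an adjusted p of 0.00261. GYS1, the glycogen synthase, went from 10.6 to 16.5, from 9.93 to 15.6 and from 11.9 to 15.9 FPKM in the same order (0.53 ± 0.06). PLOD2, a collagen lysyl hydroxylase, went from 16.6 to 23.5, from 12.6 to 17 and from 17.7 to 25.7 FPKM (0.46 ± 0.04). Each of these was higher with PRL1 siRNA in all 3 lines, as ALDOC was.

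VHL, the ubiquitin ligase subunit that binds hydroxylated HIF alpha, fell beside EGLN1, from 19.7 to 12.9 FPKM (wild type), 19.9 to 15.0 (clone 1) and 18.5 to 11.8 (clone 2), a fitted difference of -0.52 ± 0.05 with an adjusted p of 0.00244. TIGAR, a phosphatase that lowers fructose 2,6-bisphosphate, went from 18.7 to 10.4, from 24.7 to 17 and from 28.8 to 17.3 FPKM (-0.67 ± 0.06). PCK2, the mitochondrial phosphoenolpyruvate carboxykinase, went from 40.4 to 26.1, from 39.3 to 23.2 and from 32.0 to 21.3 FPKM (-0.64 ± 0.05). Among HIF targets that fell with VEGFA were LOX, a collagen cross-linking enzyme (156 to 86.6, 250 to 178 and 199 to 147 FPKM, -0.59 ± 0.08), and AK4, a mitochondrial adenylate kinase (13.1 to 8.68, 11.6 to 8.12 and 12.7 to 7.60 FPKM, -0.56 ± 0.05). Known HIF targets thus passed in both directions, among the members and in the companion list.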

How the data were processed

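Transcripts of MDCK cells were measured in 6 libraries, prepared with the miRNeasy and TruSeq Stranded mRNA kits per the labels' protocols. The authors deposited FPKM for each gene symbol. Cufflinks 2.2.1, Cuffdiff and HISAT2 2.1.0 are named in the submitters' processing notes. Not given in the sources used here are the annotation, the strand setting and the genome build. No coordinates or sequences are therefore printed, and overlapping or antisense genes may share fragments. RefSeq names of assembly UU_Cfam_GSD_1.0 matched 38797 of 41401 symbols and all 37 members.

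The 12125 genes averaging 1 FPKM or more were fitted as log2(FPKM + 1) with limma 3.58.1 (R 4.3.3) and an intensity trend. The pseudocount of 1 understates changes of low genes. P-values were adjusted over all genes by the Benjamini-Hochberg method at 0.05, and "rose", "fell", "higher" and "lower" calls mean an adjusted p under it. The siRNA effect and the line comparisons came from 1 fit with line and siRNA as terms (3 pairs, 2 residual degrees of freedom). The comparison under control siRNA and the interaction came from a fit of 4 groups. Libraries are paired because a shared number marks 1 clone, and their deviations from group means correlated with r = 0.595 over genes. No pair of libraries held identical values. Relative depth came from ratios of genes below 0.1 FPKM, of which 28.3% to 31.4% lay on small whole-number ratios against 2.95% to 3.17% on a shifted grid. Fragment counts could not be rebuilt from these values.

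Values in all libraries were set to be given for members that passed for the siRNA, members with a line difference of at least 1, HIF1A, EPAS1 and paralogs, and for the 8 largest companion genes; others were set to be given by ranges and counts, except CA9 and ADM, added after their values were seen. Members and lists were chosen with earlier results of these data known. The procedure was tested on simulated data. Alternatives changed the pseudocount (0.1), the filter (5 FPKM or none), the scaling, the trend, the block and the libraries used.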

Additional observations from a re-analysis of the deposited data

How the results depend on the processing

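No result reversed. Without a filter on low values, the siRNA effect over 3 lines called 1179 genes and 2 members (ALDOC and VEGFA). In that setting clone 1 minus wild type called 0 genes and 0 members (6405 genes at an unadjusted p under 0.05, limma), clone 2 minus wild type 1299 and 2, clone 2 minus clone 1 4 and 0, the clones under control siRNA 165 genes, and the interaction 157. Without an intensity trend, 2 members passed between the clones, and 4 genes in each of the last 2 comparisons. With no replicate block, the siRNA effect called 1710 genes and 5 members, and in the clones only, with no replicate block, 0 genes and 0 members (2575 genes at an unadjusted p under 0.05, limma). The interaction with the replicate block called 1 gene and no member. Leaving out 1 line's pair gave 1709 to 4037 genes and 7 to 13 members for the siRNA effect: 11 members without wild type, 7 without clone 1 and 13 without clone 2. Leaving out single libraries gave 241 to 2179 genes and 0 to 18 members for clone 1 minus wild type, 1553 to 3086 and 7 to 17 for clone 2 minus wild type, and 299 to 2164 and 1 to 8 for clone 2 minus clone 1. ALDOC, PFKM, BNIP3L, VEGFA and LDHB kept their siRNA calls whichever line was left out. For the siRNA effect, the 12 members called were called again with the pseudocount of 0.1 (14 called) and with median-of-ratios scaling (15 called), and 11 of them, all that were still tested, with the filter at 5 FPKM (14 called). Absolute depth is unknown, so counting error is not given for any value, and CA9 and EPAS1 were too low to test.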

Other observations

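The companion genes also differed between the lines, which share the wild-type libraries in both comparisons. Of the 28 tested HIF pathway genes, 3 passed as higher and 10 as lower in clone 1 than in wild type, and 4 as higher and 7 as lower in clone 2. Of all genes, 16.7% passed as higher and 8.07% as lower in clone 1, and 18.6% and 13.6% in clone 2. Of the 15 tested genes of glucose and pyruvate metabolism, 3 were higher and 3 lower in clone 1, and 3 higher and 5 lower in clone 2, so that the shares of higher genes in this list were close to those of all genes. The genes named next were chosen after their values were seen. BPGM, which makes 2,3-bisphosphoglycerate, stood at 24.8 and 18.7 FPKM (wild type), 11.5 and 7.83 (clone 1), and 13.1 and 9.75 (clone 2), with limma adjusted p of 0.000713 and 0.000633 for the clones. PDK2, the most abundant pyruvate dehydrogenase kinase gene measured, stood at 177 and 202 FPKM (wild type), 120 and 137 (clone 1), and 116 and 148 (clone 2), with limma adjusted p of 0.00364 and 0.00244. PDK2 was thus lower in both clones, as PDK1 and PDK3 were. TIGAR was higher in both clones, by 0.52 ± 0.07 and 0.64 ± 0.07, while its siRNA difference was a fall. STC1, a secreted glycoprotein gene induced by hypoxia, stood at 282 and 254 FPKM (wild type), 418 and 282 (clone 1), and 565 and 598 (clone 2), and passed as higher in clone 2 (limma adjusted p = 0.0044).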
